A study of Mus musculus with 8 samples.

Results

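Ganciclovir (GANC) was compared with its solvent DMSO in mouse embryonic stem cells labelled Control, over all expressed genes. Embryonic stem cells are grown from the inner cell mass of the blastocyst and keep the ability to give rise to every tissue of the body. The comparison is defined by the labels alone, though it was chosen with earlier results of these data known. It uses 4 of the 8 RNA sequencing libraries of the study, 2 labelled Control DMSO and 2 labelled Control GANC. The other 4 libraries come from cells labelled HSVTK with the same treatments, in which a reporter of the 2-cell-like (2C) state drives the viral thymidine kinase HSVTK, so that GANC is meant to kill the cells in that state. GANC is a guanosine analogue that the viral kinase turns into a toxic nucleotide. The comparison in Control cells asked what the drug does as background. The labels give no dose, no duration, no strain, and no account of what the Control cells carry. Whether both libraries of a group are separate cultures is not stated either. The p-values therefore rest on the scatter within groups over all 8 libraries, which were fitted together, and that scatter may be technical.

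Most of what is described below concerns fuel use, lipid synthesis and signals of the early embryo. Cells take up glucose through transporters, split it to pyruvate in glycolysis, and can release the product as lactate. The transcription factor HIF, which prolyl hydroxylases mark for breakdown when oxygen is present, turns on many of these genes together with genes of mitochondrial turnover. SREBP transcription factors turn on the enzymes that make sterols and fatty acids. In embryonic stem cells Nodal, a secreted ligand of the TGF-beta family, acts with the co-receptor Tdgf1 and is held in check by its own targets Lefty1 and Lefty2. BMP ligands act through Id genes.

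The 4 Control libraries held 29704460 to 33768966 counts assigned to genes, 23777 to 24517 genes with a count, and 2.88 to 3.17% of counts from mitochondrial genes. Defining genes of embryonic stem cells were high in all of them: in FPKM, which corrects for gene length, Dppa5a stood at 1811 to 2145, Zfp42 at 472.3 to 475.1, Pou5f1 at 255.1 to 304.2, Nanog at 238.8 to 247.6 and Sox2 at 204.2 to 236.2. Replicates of Control GANC differed more from each other than those of Control DMSO, with chi-square values of 8.39 against 3.86 for each degree of freedom. In 2C-state genes the libraries labelled HSVTK GANC did not show the fall that removal of 2C-like cells would give. CPM (counts scaled to 1e+06 per library) of the 29 tested ones summed to 508.6 and 536.8 in HSVTK GANC. In HSVTK DMSO the sum was 432.4 and 426.8 CPM. Abundant members weigh most in such a sum, and the median log2 fold change of the 29 in HSVTK cells was 1.06. Genes of p53, which stops division after DNA damage, had a median log2 fold change of 0.266 in HSVTK cells as labelled. Mitosis genes had -0.198. Whether libraries were exchanged was not tested. Directions between HSVTK libraries below therefore rest on the labels.

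In Control cells 1453 of 17976 tested genes differed between GANC and DMSO (8.08%), 850 higher with GANC (4.73%) and 603 lower (3.35%). A gene was called when its adjusted p, from the quasi-likelihood F test of edgeR with Benjamini-Hochberg adjustment, was below 0.05. Most changes were small. The median size of a called change was 0.37 on the log2 scale, 1157 called genes changed less than 1.5-fold, and 98 changed at least 2-fold, 64 of them higher. The median over all tested genes was -0.0039. The plot of fold change against level shows that the highest folds at levels above a few CPM were rises.

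**Figure D1:**
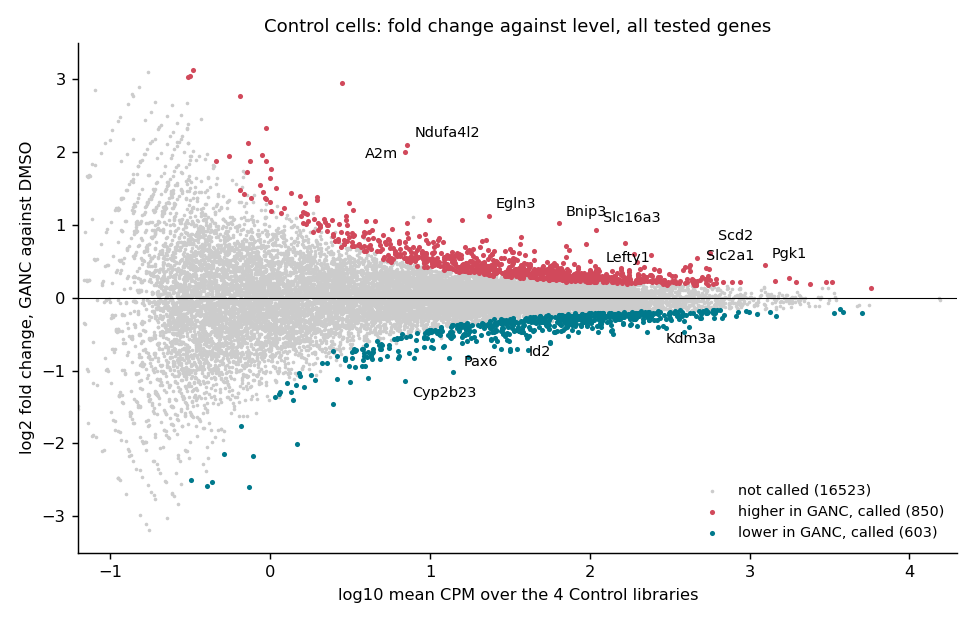
Log2 fold change between Control GANC and Control DMSO against the log10 mean CPM of the 4 Control libraries, one point per tested gene. Red points are the 850 genes called higher, teal points the 603 called lower and grey points the 16523 not called, and 55 genes lie outside the plotted range. Ndufa4l2 and A2m stand near 2 at low levels, and Pgk1 and Scd2 are among the abundant genes that were called higher.

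The number of called genes depended on single libraries. It was 592 without Control DMSO replicate 1, 433 without Control DMSO replicate 2, 728 without Control GANC replicate 2 and 2010 without Control GANC replicate 1. A fit of the 4 Control libraries alone called 942 genes. On the log2(FPKM + 1) scale limma called 190, of which 181 were among the 1453. In each fit without one library the remaining library of that group is taken to vary like the other groups. A core of 236 genes was called in all 4 fits that leave out a Control library, 163 higher (0.907% of tested genes) and 73 lower (0.406%). These are termed stable calls below, and values are given first for them.

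**Figure D2:**
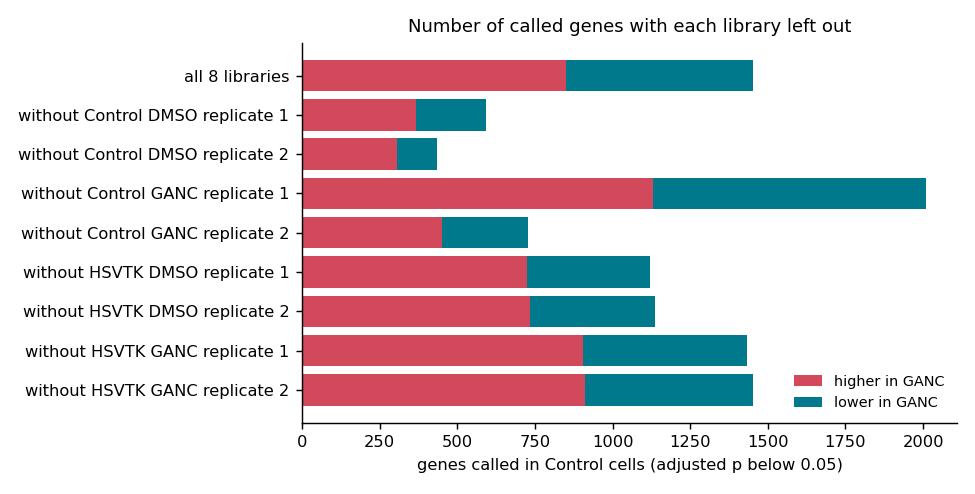
Number of genes called in Control cells with all 8 libraries and with each library left out, higher with GANC in red and lower in teal. The count ranges from 433 without Control DMSO replicate 2 to 2010 without Control GANC replicate 1.

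The gene lists below were chosen with earlier results of these data known, so their shares of calls are a description and no test. The share called also rose with level, from 1.15% of the 5992 lowest tested genes by CPM to 14.8% of the 5992 highest. Genes of glucose uptake and glycolysis were higher with GANC. Of 37 tested genes (36 symbols, as Aldoa matches a pair of genes), 19 were called higher and 1 lower, against 4.73% and 3.35% of all tested genes, and the median log2 fold change was 0.22 against -0.0039 over all tested genes. The higher calls numbered 11 without Control DMSO replicate 2 and 14 without Control DMSO replicate 1, and 11 were stable. With limma on log2(FPKM + 1) the list had 6 higher and 0 lower. Its summed level was 20080 and 19300 CPM in Control DMSO and 21430 and 22620 CPM in Control GANC. By role, both glucose transporters, 9 of 10 genes of the upper steps, 3 of 6 of the lower steps, 2 of 4 of lactate production and export and 2 of 5 of glycogen metabolism were called higher.

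The transporter that brings glucose in, Slc2a1 (ENSMUSG00000028645), stood at 382 and 379 CPM in the Control DMSO libraries and 549.5 and 565 in the Control GANC libraries. Its log2 fold change was 0.55 ± 0.05 (SE, adjusted p = 7.54e-08, edgeR). The transporter that lets lactate out, Slc16a3 (ENSMUSG00000025161), rose from 76.2 and 73.0 CPM with DMSO to 142 and 144 with GANC, a log2 fold change of 0.94 ± 0.07 (adjusted p = 5.43e-10). For both genes the groups lay far apart next to the gap between replicates. Between uptake and export, the hexokinase Hk1, which traps glucose in the cell, stood at 27.6 and 23.8 CPM in the Control DMSO libraries and 38.8 and 40.7 in the Control GANC libraries. The phosphofructokinase subunit Pfkl, at the committing step, rose from 200.3 and 185 CPM with DMSO to 286 and 295 with GANC. Neither gene showed overlap between groups, a separation that 25% of all tested genes showed in the higher direction. Log2 fold changes were 0.63 ± 0.10 for Hk1 (adjusted p = 0.000149) and 0.59 ± 0.06 for Pfkl (adjusted p = 1.21e-07). Triose phosphate isomerase Tpi1 rose from 483 and 481 CPM with DMSO to 612 and 651 with GANC (log2 fold change 0.39 ± 0.06). Phosphoglycerate kinase Pgk1, the first step that yields ATP, rose from 1078 and 1021 CPM with DMSO to 1462 and 1404 with GANC (log2 fold change 0.45 ± 0.06, adjusted p = 1.66e-05). Lactate dehydrogenase Ldha rose from 1619 and 1553 CPM with DMSO to 1871 and 1958 with GANC (log2 fold change 0.27 ± 0.05). The steepest rise of the list was in the phosphoglucomutase Pgm1, which links glucose phosphate to glycogen, from 10.6 and 9.78 CPM with DMSO to 22.7 and 20.1 with GANC (log2 fold change 1.07 ± 0.11, adjusted p = 2.94e-07). The remaining stable calls of the list, named after their values were seen, were the phosphofructokinase Pfkm at 0.44, the aldolase Aldoc at 0.57 and the glycogen synthase Gys1 at 0.41.

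Not every step passed the test. The enzyme Gapdh stood at 5153 and 4892 CPM in the Control DMSO libraries and 4411 and 4975 in the Control GANC libraries, with overlap between the groups and a log2 fold change of -0.10 ± 0.05 (adjusted p = 0.242). Without Control GANC replicate 2 its adjusted p was 0.00606 with a lower level. The enolase Eno1 had 0.13 ± 0.05 (adjusted p = 0.0711, and 0.00102 without Control GANC replicate 1). Ldhb, the subunit that favours the use of lactate, had -0.05 ± 0.07. The gene called lower was Pfkfb2, which sets the level of an activator of phosphofructokinase, at 5.36 and 5.61 CPM with DMSO and 3.27 and 2.95 CPM with GANC (log2 fold change -0.81 ± 0.19, adjusted p = 0.00648). It was no longer called without Control DMSO replicate 2 (0.0619) or without Control GANC replicate 2 (0.0606). The second glucose transporter Slc2a3 had 0.19 ± 0.05, a call missed without Control DMSO replicate 1 (0.132) or replicate 2 (0.16). With limma on log2(FPKM + 1), Hk1 (0.0569), Tpi1 (0.0551), Ldha (0.0549), Aldoc (0.0518), Gys1 (0.0527), Pfkfb2 (0.0745) and Slc2a3 (0.0649) missed the threshold.

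HIF targets outside glycolysis had 14 of 48 tested genes higher and 2 lower, against 4.73% and 3.35% of all tested genes, with a median log2 fold change of 0.16. By limma on log2(FPKM + 1) it was 5 higher and 1 lower. Without Control DMSO replicate 1 or replicate 2 the higher calls numbered 9 in each fit. Stable calls were 6 higher and 1 lower. The oxygen sensors Egln1 and Egln3 are prolyl hydroxylases that mark HIF for breakdown and are themselves HIF targets. Egln1 rose from 17.0 and 15.7 CPM with DMSO to 27.6 and 28.8 with GANC, and Egln3 (ENSMUSG00000035105) rose from 14.4 and 14.8 CPM with DMSO to 31.5 and 32.3 with GANC. Their log2 fold changes were 0.79 ± 0.10 (adjusted p = 1.71e-05) and 1.13 ± 0.10 (adjusted p = 2.09e-08). Bnip3 (ENSMUSG00000078566), a receptor that marks mitochondria for removal, stood at 40.4 and 43.6 CPM in the Control DMSO libraries and 93.7 and 77.1 in the Control GANC libraries (log2 fold change 1.03 ± 0.09, adjusted p = 2.06e-08). Its GANC libraries differed from each other by more than its DMSO libraries, yet both lay above them. Ndufa4l2 (ENSMUSG00000040280), a mitochondrial protein induced by low oxygen, had the highest fold of the stable calls with a mean of at least 1 CPM, from 2.80 and 2.63 CPM with DMSO to 12.7 and 10.6 with GANC (4.29-fold). Ddit4, an inhibitor of mTOR signalling, rose from 72.5 and 70.4 CPM with DMSO to 117 and 121 with GANC (log2 fold change 0.74 ± 0.07), and the adenylate kinase Ak4 had 0.35 ± 0.07 (adjusted p = 0.00226, and 0.0501 with limma on log2(FPKM + 1)).

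Some HIF pathway genes did not follow. The histone demethylase Kdm3a, also known as a HIF target, was lower, from 303 and 305 CPM with DMSO to 234 and 226 with GANC (log2 fold change -0.40 ± 0.06, adjusted p = 6.48e-05). Hif1a itself, which is controlled mainly at the protein level, stood at 105 and 106 CPM in the Control DMSO libraries and 92.5 and 89.8 in the Control GANC libraries (log2 fold change -0.21 ± 0.07, adjusted p = 0.0464). That call was lost in each of the 4 fits without a Control library (adjusted p 0.0588 to 0.309), with library size scaling (0.058), without the filter on low counts (0.101), with the 4 Control libraries alone (0.0769), without HSVTK DMSO replicate 1 (0.102) or replicate 2 (0.103) and with limma on log2(FPKM + 1) (0.107). Vegfa, the growth factor of blood vessels, had 0.16 ± 0.08 (adjusted p = 0.235). The secreted hormone Stc1 had 0 counts in both Control DMSO libraries and 11 and 6 counts in Control GANC. Against a floor of 3 counts over the Control DMSO group it was at least 5.49-fold higher. Its call (adjusted p = 0.0284) was lost without any 1 Control library (0.0641 to 0.197), without HSVTK DMSO replicate 1 (0.0511) or replicate 2 (0.0703), and with limma on log2(FPKM + 1) (0.418).

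The promoters of 4 of these genes, and of Pfkl, show how the letters of a form of the HIF site fall in them. The letters ACGTG, a form of the core of the element that HIF binds, were searched on both strands in the 250 bases before each RefSeq start (GRCm38.p6), and are in capitals below. The core can also read GCGTG, which was not searched, so the matches and shares below count ACGTG only. CACGTG is its own reverse complement and so counts once on each strand, with an overlap. The windows, read 5′ to 3′ on the gene's strand, are Slc16a3 at chr11:120948817-120949066 (plus strand), Bnip3 at chr7:138909507-138909756 (minus), Egln3 at chr12:54203875-54204124 (minus), Slc2a1 at chr4:119108495-119108744 (plus) and Pfkl at chr10:78009808-78010057 (minus).
Slc16a3: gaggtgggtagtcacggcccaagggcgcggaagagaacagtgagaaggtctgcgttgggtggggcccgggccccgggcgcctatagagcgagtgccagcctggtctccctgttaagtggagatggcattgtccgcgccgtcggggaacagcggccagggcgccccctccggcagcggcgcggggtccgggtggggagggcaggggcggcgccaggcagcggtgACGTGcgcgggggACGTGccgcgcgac
Bnip3: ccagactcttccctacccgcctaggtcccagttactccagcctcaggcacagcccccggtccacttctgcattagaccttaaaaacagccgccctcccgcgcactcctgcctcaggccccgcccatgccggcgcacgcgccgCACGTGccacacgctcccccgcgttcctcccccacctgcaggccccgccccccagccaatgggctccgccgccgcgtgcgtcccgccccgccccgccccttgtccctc
Egln3: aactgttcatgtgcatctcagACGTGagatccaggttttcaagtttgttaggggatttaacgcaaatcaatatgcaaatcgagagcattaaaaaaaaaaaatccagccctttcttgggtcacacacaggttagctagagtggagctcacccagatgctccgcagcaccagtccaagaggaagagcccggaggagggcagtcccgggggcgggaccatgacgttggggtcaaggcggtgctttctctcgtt
Slc2a1: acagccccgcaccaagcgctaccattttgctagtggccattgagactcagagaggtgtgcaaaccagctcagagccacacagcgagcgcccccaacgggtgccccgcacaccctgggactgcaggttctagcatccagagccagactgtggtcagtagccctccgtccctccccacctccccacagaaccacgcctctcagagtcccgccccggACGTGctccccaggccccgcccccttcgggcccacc
Pfkl: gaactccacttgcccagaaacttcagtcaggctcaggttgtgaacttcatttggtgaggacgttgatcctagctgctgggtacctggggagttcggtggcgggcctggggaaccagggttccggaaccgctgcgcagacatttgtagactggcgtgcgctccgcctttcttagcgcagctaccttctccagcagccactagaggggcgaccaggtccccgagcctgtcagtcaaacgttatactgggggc
The Slc16a3 window holds 2 matches within the last 27 bases before the start, Bnip3 holds 1 palindrome, counted as 2 matches, and Egln3 and Slc2a1 hold 1 each. Pfkl, with a rise close to that of Slc2a1, holds no ACGTG in this window, though it holds the letters GCGTG. Over the 33 symbols called higher in the glycolysis and HIF lists, 27 had a promoter in the table, and 20 of their 42 promoters held a match (47.6%). Among the other tested members of the same lists it was 27 of 62 promoters (43.5%), and over all tested genes 3194 of 15212 promoters (21.0%). The share among called members was close to that among the other members, and no test was run on it. Ndufa4l2 had no entry in the table. A match is a run of letters and no measured binding site.

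Lipid synthesis was the other metabolic group with many higher calls. Of 13 genes of fatty acid synthesis 8 were called higher and 0 lower by edgeR, against 4.73% and 3.35% of all tested genes. At an unadjusted p below 0.05 it was 9 higher and 0 lower, by DESeq2 8 and 0, and by limma on log2(FPKM + 1) 4 and 0. The median log2 fold change was 0.44, and 6 of the calls were stable. The summed level was 1666 and 1637 CPM in Control DMSO and 2168 and 2173 CPM in Control GANC, so both GANC libraries lay above both DMSO libraries.

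Fatty acids are built from acetyl-CoA by Acly, Acaca and Fasn and then made unsaturated by Scd and Fads enzymes. The desaturase Scd2 (ENSMUSG00000025203) stood at 449 and 448 CPM in the Control DMSO libraries and 689.7 and 687 in the Control GANC libraries (log2 fold change 0.62 ± 0.05, adjusted p = 1.97e-08). Its relative Scd1 rose from 54.2 and 54.4 CPM with DMSO to 91.1 and 86.0 with GANC (log2 fold change 0.71 ± 0.07, adjusted p = 1.07e-07). In both desaturases the replicates nearly coincided. The desaturase of long polyunsaturated chains Fads2 rose from 36.6 and 33.3 CPM with DMSO to 55.6 and 53.9 with GANC (log2 fold change 0.65 ± 0.08), and Fads1 by 0.44 on the log2 scale. Acaca, the rate-limiting carboxylase, rose from 59.4 and 56.0 CPM with DMSO to 89.1 and 80.8 with GANC (log2 fold change 0.56 ± 0.08), and the synthase Fasn from 345 and 323 CPM with DMSO to 425 and 449 with GANC (log2 fold change 0.39 ± 0.06). Acly, which supplies acetyl-CoA from citrate, had 0.22 ± 0.05 (adjusted p = 0.0117, and 0.107 and 0.129 without Control DMSO replicate 1 or 2). Acss2, which makes it from acetate, had 0.55 ± 0.14 (adjusted p = 0.0174), lost without Control DMSO replicate 1 (0.145), Control DMSO replicate 2 (0.0672) or without Control GANC replicate 1 (0.054). The elongase Elovl6 had 0.07 ± 0.07, with overlap between the groups. With limma on log2(FPKM + 1) the calls of Acaca (0.0629), Fasn (0.0568), Acly (0.0551) and Acss2 (0.125) were lost.

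Sterol synthesis and the SREBP pathway had 10 of 36 genes higher and 0 lower by edgeR, against 4.73% and 3.35% of all tested genes, with a median of 0.14. At an unadjusted p below 0.05 it was 15 higher and 1 lower, by DESeq2 10 and 0, and by limma on log2(FPKM + 1) 2 and 0. The higher calls fell to 5 without Control DMSO replicate 1 and to 4 without Control DMSO replicate 2, and 3 were stable. These were Dhcr7, the last step to cholesterol, from 28.4 and 28.2 CPM with DMSO to 42.8 and 43.8 with GANC (log2 fold change 0.61 ± 0.08, adjusted p = 2.5e-05), Srebf2, the SREBP of the sterol branch, from 192 and 184 CPM with DMSO to 249 and 254 with GANC (log2 fold change 0.42 ± 0.06), and the cyclase Lss, from 53.4 and 54.2 CPM with DMSO to 69.1 and 69.6 with GANC (log2 fold change 0.37 ± 0.07, and an adjusted p of 0.0551 with limma on log2(FPKM + 1)). Hmgcs1, an early enzyme of the pathway, had -0.00 ± 0.06 (adjusted p = 0.993).

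**Figure D3:**
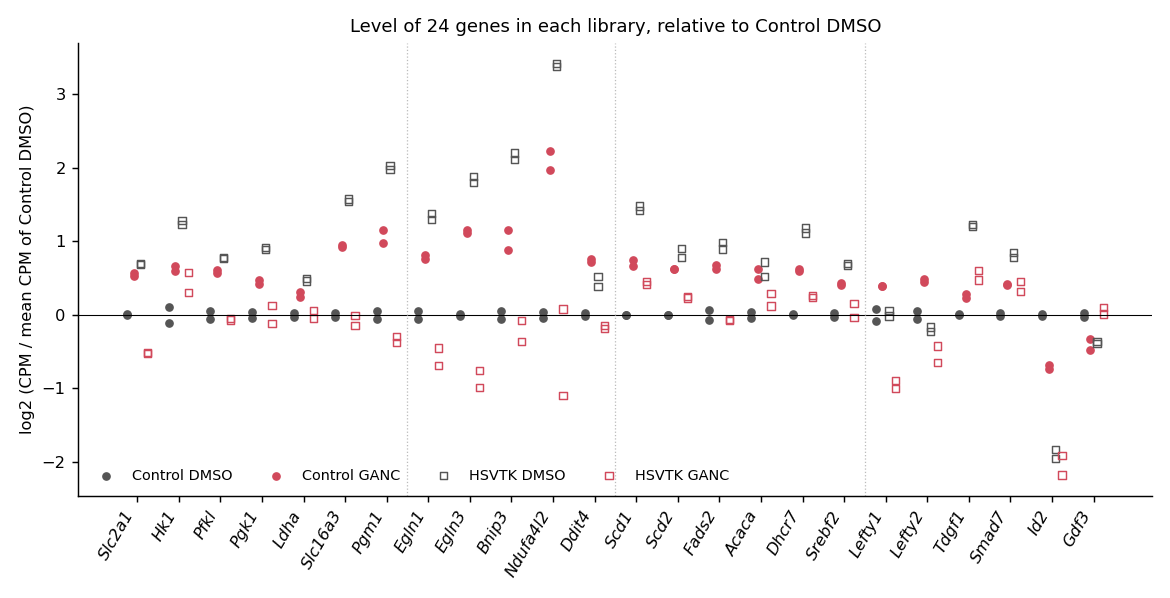
Level of 24 genes in each of the 8 libraries as log2 of CPM over the mean CPM of Control DMSO, with dotted lines between glycolysis, HIF targets, lipid synthesis and the Nodal and BMP pathway. Filled circles are Control libraries and open squares HSVTK libraries, grey with DMSO and red with GANC. All genes shown were picked from those called in Control cells. Red circles lie apart from grey circles for every gene shown, above them except for Id2 and Gdf3.

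The Nodal and BMP pathway had 6 of 19 tested genes higher and 3 lower, against 4.73% and 3.35% of all tested genes, with a median log2 fold change of 0.18. Stable calls were 5 higher and 2 lower. The ligand Nodal had 61.6 and 61.4 CPM in the Control DMSO libraries and 74.7 and 75.8 in the Control GANC libraries (log2 fold change 0.29 ± 0.07, adjusted p = 0.00923), which did not hold without Control DMSO replicate 1 (0.0804) or replicate 2 (0.0919). Its co-receptor Tdgf1 rose from 558 and 563 CPM with DMSO to 681 and 659 with GANC (log2 fold change 0.26 ± 0.05, and an adjusted p of 0.058 with limma on log2(FPKM + 1)). The Nodal targets and antagonists Lefty1 and Lefty2 rose: Lefty1 from 103 and 92.2 CPM with DMSO to 128 in each with GANC, and Lefty2 from 69.8 and 64.5 CPM with DMSO to 94.0 and 91.3 with GANC. Their log2 fold changes were 0.39 ± 0.07 (adjusted p = 0.000765) and 0.46 ± 0.08 (adjusted p = 0.000393). Smad7, an inhibitor of TGF-beta receptors that is induced by their signal, rose by 0.41 on the log2 scale, from 55.8 and 57.3 CPM with DMSO to 74.8 and 75.7 with GANC, and the activin subunit Inhbb by 0.52. The stable calls that fell were Id2 and Gdf3. Id2, an inhibitor of helix-loop-helix factors induced by BMP, went from 43.3 and 44.1 CPM with DMSO to 27.3 and 26.3 with GANC (log2 fold change -0.71 ± 0.10, adjusted p = 4.3e-05). The ligand Gdf3 went from 136 and 131 CPM with DMSO to 95.6 and 106 with GANC (log2 fold change -0.40 ± 0.07).

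Genes of the formative and primed states, into which naive stem cells pass before they differentiate, had 8 of 24 members higher and 1 lower, with a median of 0.17. Lists of pluripotency are set against 4.73% higher and 3.35% lower among all tested genes. The higher calls numbered 4 without any one of Control DMSO replicates 1 and 2 and Control GANC replicate 2, and 4 were stable. None of the 24 was called by limma on log2(FPKM + 1). The Wnt effector Lef1 rose from 11.1 and 10.5 CPM with DMSO to 16.3 and 16.9 with GANC, the zinc finger factor Zic5 from 23.4 and 23.6 CPM with DMSO to 33.8 and 30.8 with GANC, the DNA methyltransferase Dnmt3a from 90.2 and 84.7 CPM with DMSO to 111 and 117 with GANC and the factor Tead2 from 84.9 and 90.0 CPM with DMSO to 109 and 116 with GANC. Their log2 fold changes ran from 0.36 for Tead2 to 0.62 for Lef1, and limma on log2(FPKM + 1) called none of the 4 (0.0527 to 0.0698). Core and naive pluripotency was split, with 6 of 36 higher and 5 lower and a median of 0.07. The higher calls ranged from 1 without Control DMSO replicate 2 to 11 without Control GANC replicate 1, and limma on log2(FPKM + 1) called 1 higher and 2 lower. The naive factor Klf4 rose from 74.2 and 74.8 CPM with DMSO to 92.0 and 96.3 with GANC (log2 fold change 0.34 ± 0.07), while Tcl1, a coactivator of the kinase Akt, fell from 94.6 and 91.0 CPM with DMSO to 71.0 and 73.4 with GANC (log2 fold change -0.36 ± 0.07). Among the core factors, Nanog had -0.01 ± 0.05 and Pou5f1 0.14 ± 0.06 (adjusted p = 0.128, and 0.00367 without Control GANC replicate 1). Sox2 had 0.18 ± 0.05 (adjusted p = 0.0365), a call that did not hold without Control DMSO replicate 1 (0.25), Control DMSO replicate 2 (0.175), Control GANC replicate 2 (0.0827), HSVTK DMSO replicate 1 (0.0721) or HSVTK DMSO replicate 2 (0.0714), with the 4 Control libraries alone (0.0643) and with limma on log2(FPKM + 1) (0.0813).

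Genes that handle nucleosides and their analogues were called about as often as all tested genes. Nucleoside kinases, transporters and nucleotide supply had 4 of 50 genes higher and 1 lower, against 8.08% of all tested genes in either direction, with a median of 0.02, and limma on log2(FPKM + 1) called 0 and 0. The cellular thymidine kinase Tk1 stood at 74.3 and 73.8 CPM in the Control DMSO libraries and 74.2 and 86.2 in the Control GANC libraries (log2 fold change 0.11 ± 0.07, adjusted p = 0.384, and 0.0371 without Control GANC replicate 1). The kinase Guk1, which can add a phosphate to ganciclovir monophosphate, had -0.03 ± 0.08, the mitochondrial deoxyguanosine kinase Dguok -0.16 ± 0.13 and the nucleoside transporter Slc29a1 -0.15 ± 0.06. None of these passed the test with all libraries. The stable call of the list was Cad, the enzyme that starts pyrimidine synthesis, from 221 and 216 CPM with DMSO to 278 and 298 with GANC (log2 fold change 0.40 ± 0.07, and an adjusted p of 0.0549 with limma on log2(FPKM + 1)).

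Genes of p53, the factor that stops division after DNA damage, had 0 of 39 members higher and 8 lower by edgeR, with a median of -0.03. Among all tested genes 4.73% were higher and 3.35% lower. At an unadjusted p below 0.05 it was 3 higher and 12 lower, by DESeq2 0 and 8, and by limma on log2(FPKM + 1) 0 and 0. The lower calls numbered 2 without Control DMSO replicate 1, 1 without Control DMSO replicate 2 and 2 without Control GANC replicate 2. The stable one was the death receptor Eda2r, from 71.7 and 70.3 CPM with DMSO to 56.8 and 45.1 with GANC (log2 fold change -0.48 ± 0.09, and an adjusted p of 0.0762 with limma on log2(FPKM + 1)). Ccng1 had -0.26 ± 0.06 and the p53 antagonist Mdm2 -0.24 ± 0.07. The Ccng1 call was lost without Control DMSO replicate 1 (0.0808) or replicate 2 (0.089) and with limma on log2(FPKM + 1) (0.0573). That of Mdm2 was lost without Control DMSO replicate 1 (0.111), Control DMSO replicate 2 (0.195) or without Control GANC replicate 2 (0.172) and with limma (0.129). Trp53, which encodes p53, had 0.02 ± 0.06, and Cdkn1a, the cell cycle inhibitor that it induces, 0.14 ± 0.09 (adjusted p = 0.397).

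The other groups of the cell cycle and the genome are set against 4.73% higher and 3.35% lower among all tested genes. Replication and checkpoint genes had 2 of 57 higher and 2 lower (7.02% called), and limma on log2(FPKM + 1) called 0 and 0. Homologous recombination and Fanconi anaemia genes had 2 of 34 higher and 3 lower (14.7% called), with 1 and 0 by limma. Other repair genes had 3 of 40 and 0 by edgeR (7.5% called), with 5 and 7 at an unadjusted p below 0.05, 3 and 0 by DESeq2 and 0 and 0 by limma on log2(FPKM + 1). Mitosis genes had 0 of 34 higher and 6 lower by edgeR (17.6% called), with 1 and 12 at an unadjusted p below 0.05, 0 and 8 by DESeq2 and 0 and 0 by limma. The 6 lower calls became 1 without Control DMSO replicate 1, 0 without Control DMSO replicate 2 or without Control GANC replicate 2 and 9 without Control GANC replicate 1. Stable calls were the cell cycle factor E2f1, from 40.6 and 40.9 CPM with DMSO to 51.0 and 56.0 with GANC (log2 fold change 0.39 ± 0.08), the Fanconi anaemia protein Fance (log2 fold change 0.42 ± 0.09) and the linker histone H1f0 (log2 fold change 0.47 ± 0.10).

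For 2C-state genes, 29 of 44 were tested and edgeR called 0 higher and 0 lower, against 4.73% and 3.35% of all tested genes, with a median of -0.29. At an unadjusted p below 0.05 it was 0 higher and 5 lower, and by DESeq2 and limma on log2(FPKM + 1) 0 and 0. The summed level of the 29 genes was 486.9 and 489.2 CPM in Control DMSO and 453.1 and 453.7 CPM in Control GANC, so both GANC libraries lay below both DMSO libraries. Abundant members weigh most in this sum, to which Zscan4c and Zscan4d, given below, add little. Of the 5992 tested genes with the lowest CPM 1.15% were called, so a lack of calls among low members says little. Of the single genes, 2 were higher and 11 lower with GANC without overlap between the groups, against 25% and 24.5% of all tested genes. Zscan4c, active in the 2-cell embryo and known for telomere upkeep, stood at 5.23 and 4.10 CPM with DMSO and 5.0 and 4.15 CPM with GANC, with overlap between the groups (log2 fold change -0.03 ± 0.19). Zscan4d had 0.15 ± 0.18, and Zfp352, at 0.308 and 0.513 CPM with DMSO and 0.416 and 0.0663 CPM with GANC, -0.72 ± 0.74 (adjusted p = 0.633). Zscan4 genes are near-identical copies, and the sources used here do not say how reads that match several copies were counted, so their single values are uncertain. Among repressors of this state, 5 of 33 were higher and 4 lower by edgeR, against the same 4.73% and 3.35%, and 1 and 0 by limma on log2(FPKM + 1). The stable call was Rif1, from 336 and 351 CPM with DMSO to 293 and 221 with GANC (log2 fold change -0.42 ± 0.08). Its GANC libraries lay far apart, the fold change was -0.23 without Control GANC replicate 2, and the call was lost with DESeq2 (0.052) and limma on log2(FPKM + 1) (0.12).

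The next lists are set against 4.73% higher and 3.35% lower among all tested genes. Amino acid stress and ATF4 targets had 6 of 39 members higher and 5 lower, with a median of 0.06, and limma on log2(FPKM + 1) called 4 and 1. The stable calls were both carriers of amino acids: Slc7a5, which takes up leucine and other large ones, from 343 and 334 CPM with DMSO to 431 and 475 with GANC (log2 fold change 0.42 ± 0.06, adjusted p = 4.33e-05), and Slc1a4, which takes up small neutral ones (log2 fold change 0.46 ± 0.08). ERK feedback and immediate early genes had 3 of 25 higher and 4 lower by edgeR and 0 and 2 by limma. The matrix-associated proteins Ccn1 and Ccn2, known targets of the YAP coactivator, fell stably: Ccn1 from 12.9 and 12.8 CPM with DMSO to 8.30 and 7.59 with GANC, and Ccn2 from 37.6 and 37.7 CPM with DMSO to 24.5 and 25.3 with GANC, with log2 fold changes of -0.69 ± 0.13 and -0.60 ± 0.09. The ERK inhibitor Spry1 had 0.57 ± 0.14 and the ERK phosphatase Dusp4 -0.47 ± 0.14. Spry1 lost its call without Control DMSO replicate 1 (0.059), Control DMSO replicate 2 (0.0917) or without Control GANC replicate 2 (0.0975), Dusp4 without Control DMSO replicate 1 (0.185), Control DMSO replicate 2 (0.119) or without Control GANC replicate 1 (0.175), and both with limma on log2(FPKM + 1) (0.0629 and 0.104). Among genes of antigen presentation, the class I chain H2-D1 had 0.55 ± 0.12, its relative H2-K1 0.37 ± 0.10 and the immunoproteasome subunit Psmb9 1.23 ± 0.38. The call of H2-D1 was lost without Control DMSO replicate 2 (0.137), that of H2-K1 without Control DMSO replicate 1 (0.0946), Control DMSO replicate 2 (0.149) or without Control GANC replicate 2 (0.111), that of Psmb9 without any 1 Control library (0.0561 to 0.22), without HSVTK DMSO replicate 2 (0.054) or with the 4 Control libraries alone (0.0597), and all of them with limma (0.0636 to 0.0847).

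Markers of other cell types were checked beside these groups, and are set against 4.73% higher and 3.35% lower among all tested genes. Primitive endoderm had 2 of 18 tested markers higher and 0 lower by edgeR (4 and 0 at an unadjusted p below 0.05, 2 and 0 by DESeq2, 0 and 0 by limma on log2(FPKM + 1)). Trophectoderm had 0 of 17 and mesoderm 0 of 9 called in either direction by edgeR, DESeq2 or limma, with 2 higher and 0 lower, and 0 higher and 1 lower, at an unadjusted p below 0.05. Low genes were called less often, 1.15% of the 5992 tested genes with the lowest CPM, so a lack of calls says little for low markers. Of 6 neuroectoderm markers, Pax6 was called lower. For fibroblasts and feeder cells 4 of 11 markers were higher and 0 lower by edgeR (4 and 0 at an unadjusted p below 0.05 and by DESeq2, 1 and 0 by limma), with a summed level of 488.5 and 482.4 CPM in Control DMSO and 654.1 and 632.7 CPM in Control GANC. The higher calls were 1 without Control DMSO replicate 1 and 2 without Control GANC replicate 2, and the stable one was the matrix protein fibronectin, Fn1, from 466 and 457 CPM with DMSO to 624 and 599 with GANC (log2 fold change 0.41 ± 0.05). Fn1 made up most of the summed level in each of the 4 libraries. Defining fibroblast genes were near 0 in all 4 libraries: Col1a1 had 13 to 30 counts, Col1a2 7 to 13, Col3a1 0 to 6, Dcn 0 to 4, Lum 0 to 2 and Postn 0 to 2. In bulk libraries, fewer cells of a type and less RNA per cell cannot be told apart.

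**Figure D4:**
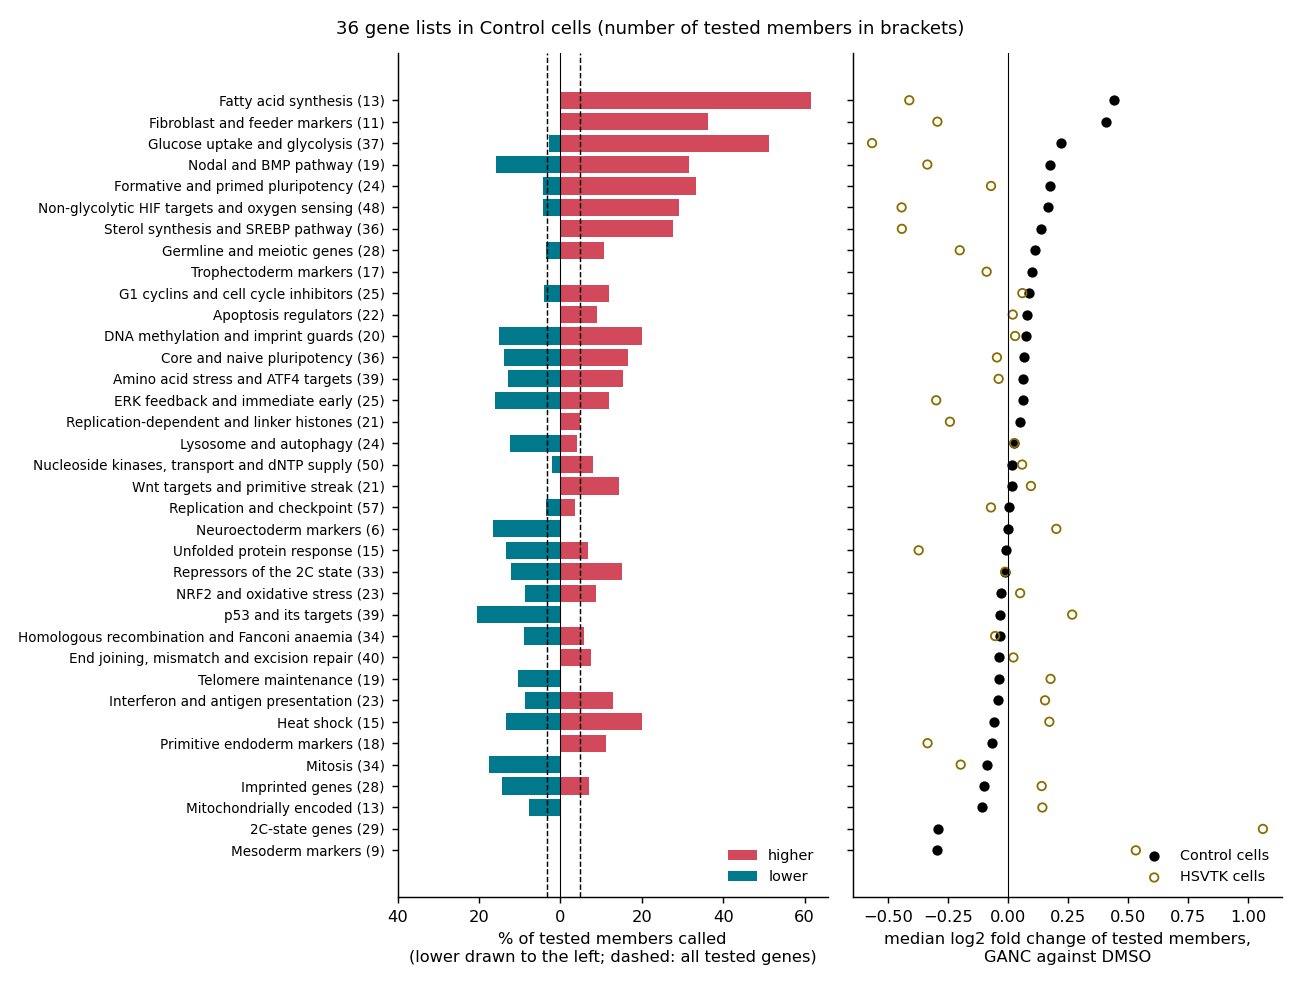
For each of 36 gene lists, the percentage of tested members called higher (red) or lower (teal, drawn to the left) in Control cells on the left panel, with dashed lines at the 4.73% and 3.35% of all tested genes. The right panel gives the median log2 fold change of tested members in Control cells (filled) and, in the direction of the labels, HSVTK cells (open), and fatty acid synthesis has the highest share called and the highest median in Control cells.

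Outside these groups, the stable calls with the highest folds were mixed in function. A2m, an inhibitor of proteases, stood at 2.77 and 2.80 CPM in the Control DMSO libraries and 12.8 and 9.35 in the Control GANC libraries (log2 fold change 1.99 ± 0.21, adjusted p = 4.65e-07). The growth factor Fgf11 rose from 0.739 and 0.718 CPM with DMSO to 1.99 and 1.96 with GANC, the collagen-crosslinking oxidase Loxl2 from 1.11 and 1.09 CPM with DMSO to 3.42 and 2.29 with GANC and the glutamate receptor subunit Grin1 from 1.45 and 2.19 CPM with DMSO to 4.91 and 3.95 with GANC. The last 3 of these stood at a few CPM or less, so their folds rest on few reads. Next came the cilium protein Tekt1 at 1.20 ± 0.21, the scaffold protein Mpp2 at 1.13 ± 0.22, the acid phosphatase Acp5 at 1.08 ± 0.24 and the meiotic kinase Aurkc at 1.07 ± 0.15. The imprinted receptor Igf2r, which takes up and clears the growth factor IGF2, rose by 0.45 on the log2 scale, from 54.0 and 50.6 CPM with DMSO to 74.9 and 67.8 with GANC. On the lower side, Cyp2b23, of the cytochrome P450 family, fell from 9.70 and 9.37 CPM with DMSO to 3.75 and 4.94 with GANC (log2 fold change -1.14 ± 0.21, adjusted p = 0.00103). The eye and brain factor Pax6 fell from 40.0 and 39.6 CPM with DMSO to 22.8 and 24.9 with GANC (log2 fold change -0.74 ± 0.11). No overlap between the groups was a condition for naming both genes. Stard8 had -0.83 ± 0.14, Tmem144 -0.82 ± 0.17, the inner ear protein Coch -0.82 ± 0.12, the T cell costimulator Icosl -0.72 ± 0.09, the ion channel family member Ano9 -0.71 ± 0.12 and the peptidase Dpp7 -0.70 ± 0.10. With limma on log2(FPKM + 1), A2m (0.0518), Loxl2 (0.0772), Grin1 (0.0897), Mpp2 (0.0627), Acp5 (0.0501), Igf2r (0.0567), Cyp2b23 (0.0604), Stard8 (0.0549) and Ano9 (0.0788) missed the threshold. In a test against a 1.5-fold change the 6 genes called were Slc16a3, Pgm1, Ndufa4l2, Egln3, Bnip3 and A2m.

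As labelled, the response of Control cells differed from that of HSVTK cells in the groups described first. The difference of responses, HSVTK minus Control, was tested as an interaction in the same fit, which called 4595 genes (25.6%), among them 1118 of the 1453 genes called in Control cells. In the glycolysis list 28 of 37 genes were called, 27 of them with a lower response in HSVTK cells, and the median change in HSVTK cells was -0.57. In fatty acid synthesis it was 8 of 13, all 8 lower, with a median of -0.41 in HSVTK cells. Sterol synthesis had 26 of 36, 24 of them lower, and the HIF targets 32 of 48, 26 of them lower.

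These directions turn with the HSVTK labels, and the 2C-state genes did not fall in HSVTK GANC as labelled. The test was therefore repeated with the HSVTK DMSO and HSVTK GANC groups exchanged, an alternative chosen after seeing the data. It then called 2261 genes (12.6%), among them 465 of the 1453. In the glycolysis list 18 of 37 were called, 17 of them with a higher response in HSVTK cells, and in fatty acid synthesis 3 of 13, 2 of them higher. Sterol synthesis had 17 of 36, 13 of them higher, and the HIF targets 16 of 48, 14 of them higher. The lower response of these lists in HSVTK cells therefore holds only as the libraries are labelled. For Slc16a3 the HSVTK libraries held 217 and 222 CPM with DMSO and 67.4 and 74.2 CPM with GANC, a difference of responses of -2.57 ± 0.09 (adjusted p = 1.8e-17). For Scd2 they held 838 and 769.7 and 534 and 525 CPM, a difference of -1.22 ± 0.07 (adjusted p = 8.74e-13). With the groups exchanged the difference was 0.70 for Slc16a3 (adjusted p = 7.67e-06) and -0.02 for Scd2 (adjusted p = 0.92). In both genes the HSVTK DMSO libraries were highest and the Control GANC libraries next. Lefty1 held 96.3 and 102 and 48.6 and 52.3 CPM, a difference of -1.36 ± 0.10 (adjusted p = 3.92e-11), and of 0.58 with the groups exchanged (adjusted p = 0.000204).

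As labelled, 335 of the 1453 genes called in Control cells were not called different, and 362 had a change of the same sign in HSVTK cells. Fasn had a log2 fold change of 0.39 in Control and 0.34 in HSVTK cells, a difference of -0.05 ± 0.09 (adjusted p = 0.757). Inhbb had 0.52 and 0.34, a difference of -0.18 ± 0.12 (adjusted p = 0.275). On the lower side Ccn2 had -0.60 and -0.58, a difference of 0.02 ± 0.13 (adjusted p = 0.936), and Ccn1 -0.69 and -0.87, a difference of -0.18 ± 0.18 (adjusted p = 0.529). For Spry1 the values were 0.57 and 0.66, with a difference of 0.09 ± 0.20, and for Dusp4 -0.47 and -0.42, with a difference of 0.05 ± 0.20. An adjusted p above the threshold does not show that the responses were equal. Exchange of the HSVTK groups only turns the sign of each HSVTK change. Genes of like sign as labelled, such as these 6, then have opposite signs in the 2 cell groups by construction. The differences were then -0.73 for Fasn, -0.87 for Inhbb, 1.17 for Ccn2, 1.56 for Ccn1, -1.24 for Spry1 and 0.88 for Dusp4.

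**Figure D5:**
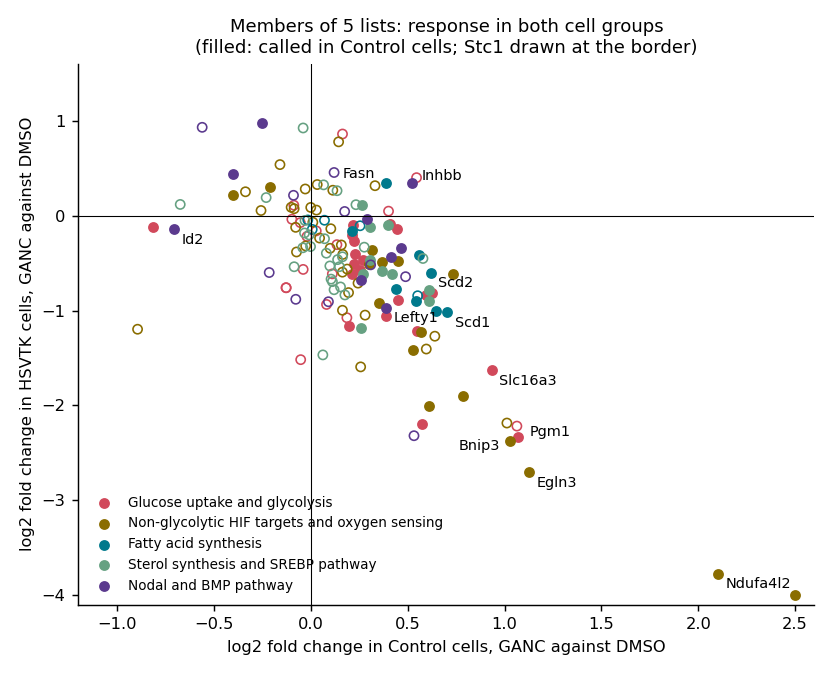
Log2 fold change with GANC in HSVTK cells against that in Control cells for the tested members of 5 lists, filled where called in Control cells, with Stc1 drawn at the border. As labelled, 54 of the 57 genes called higher in Control cells lie below 0 in HSVTK cells, and Fasn and Inhbb are among the 3 above 0. With the HSVTK groups exchanged the vertical axis would be turned over.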

How the data were processed

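Per the labels, total RNA from a phenol/chloroform extraction went into VAHTS Universal V6 libraries. The build GRCm39 and the tools featureCounts 2.0.1, HISAT2 2.1.0, fastp 0.23.2 and DESeq2 1.40.2 are named in the submitters' processing notes, with no role for any. The sources used here give neither strand nor the annotation release nor how reads with several matches were counted, so antisense, overlapping and near-identical genes are uncertain. The authors deposited raw counts for 57010 genes and, made from them by gene length and library total, FPKM (checked here for 456080 values, within 1e-05). A gene length stands beside both in the deposited tables.

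In R 4.3.3, edgeR 4.0.16 with its quasi-likelihood F test was run on the counts of all 8 libraries with a mean per group, TMM scaling and the default filterByExpr filter, which kept 17976 genes and left 4 residual degrees of freedom (biological coefficient of variation 6.31%). The standard error is the fold change over the square root of F, and CPM uses TMM factors. Replicate numbers were not used to pair the libraries in the main fit. Alternatives were DESeq2 1.42.0, limma 3.58.1 on log2(FPKM + 1) or log2(FPKM + 0.1), other scaling and filters, the Control libraries alone, a replicate block, a 1.5-fold test, each library left out and, for the difference of responses, the HSVTK groups exchanged.

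The 36 gene lists (994 symbols, 978 of them in the files) were written from general knowledge. The comparison, lists and tests were chosen with earlier results of these data known. Named genes were the largest called changes with a mean of at least 1 CPM and no overlap between groups, those of the stable calls, up to 8 members per list, and 13 fixed genes. The fixed genes were Pou5f1, Sox2, Nanog, Tk1, Dguok, Guk1, Slc29a1, Trp53, Cdkn1a, Mdm2, Zscan4c, Zscan4d and Zfp352. Not all eligible genes are described. Promoters came from a RefSeq table of GRCm38.p6, matched by symbol for 11970 of 17968 tested symbols. In simulated data for the Control comparison with 17976 genes, edgeR recovered 73% of 100 genes changed 1.5-fold and 80% of 100 changed 2-fold, with 9 false calls. The simulation gave every group the same spread at a given level and changed only genes with a mean of at least 1 CPM. In the data Control GANC replicates differed more than Control DMSO replicates (chi-square per degree of freedom 8.39 against 3.86), so these rates may not hold there.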

Additional observations from a re-analysis of the deposited data

Results flagged for a closer look

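The drug response differed between HSVTK and Control cells, by the interaction test of edgeR, for 4595 genes, and for the following genes named above. Values are differences of log2 responses, HSVTK minus Control, and the directions rest on the HSVTK labels. With the HSVTK groups exchanged, 38 of the 79 genes named here were called, 30 of them with the opposite sign. None of the causes was tested.

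In glucose use the difference was -3.41 for Pgm1, -2.77 for Aldoc, -2.57 for Slc16a3, -1.76 for Slc2a1, -1.47 for Ldhb, -1.44 for Hk1, -1.44 for Tpi1, -1.43 for Pfkl, -1.36 for Slc2a3 and -1.34 for Pgk1. It was -0.74 for Ldha, -0.59 for Pfkm, -0.49 for Gys1, -0.44 for Eno1 and 0.69 for Pfkfb2. Ldhb and Eno1 were not called in Control cells.

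In the HIF list it was -5.87 for Ndufa4l2, -3.83 for Egln3, -3.40 for Bnip3, -2.69 for Egln1, -1.35 for Ddit4, -1.27 for Ak4, -0.57 for Vegfa, 0.51 for Hif1a and 0.61 for Kdm3a. The fitted value of -13.23 for Stc1 depends on the prior count, since 2 groups had 0 counts, and is no measure of size.

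In lipid synthesis the difference was -1.73 for Scd1, -1.66 for Fads2, -1.44 for Acss2, -1.22 for Scd2, -1.21 for Fads1, -0.97 for Acaca and -0.38 for Acly. In the sterol branch it was -1.51 for Dhcr7, -1.04 for Srebf2, -0.95 for Lss and -0.32 for Hmgcs1.

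In the Nodal and BMP pathway it was -1.36 for Lefty1, -0.94 for Tdgf1, -0.84 for Smad7, -0.80 for Lefty2, -0.33 for Nodal, 0.56 for Id2 and 0.84 for Gdf3. Among genes of pluripotency it was -2.66 for Lef1, -2.64 for Zic5, -1.08 for Tead2, -1.06 for Dnmt3a, -0.62 for Klf4, -0.50 for Sox2 and 0.34 for Tcl1. Zscan4c of the 2C state had 1.10.

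Among p53 targets it was 1.18 for Ccng1, 0.75 for Eda2r and 0.40 for Mdm2. Among genes of the cell cycle and the genome it was -1.65 for H1f0, -0.81 for E2f1, -0.81 for Fance and 0.42 for Rif1. In antigen presentation it was -2.76 for Psmb9, -1.17 for H2-K1 and -0.75 for H2-D1. The carriers Slc7a5 and Slc1a4 had -0.46 and -0.33, fibronectin Fn1 -0.70 and the receptor Igf2r -0.88.

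Of the remaining named genes, A2m had -5.15, Aurkc -3.88, Grin1 -3.82, Loxl2 -3.65, Acp5 -2.93, Fgf11 -2.75, Mpp2 -2.29 and Tekt1 -1.57. On the other side, Coch had 1.76, Tmem144 1.47, Dpp7 1.21, Stard8 1.20, Ano9 1.19 and Icosl 0.89.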

How the results depend on the processing

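Against 1453 genes called in Control cells, the 4 Control libraries alone called 942, limma called 190 on log2(FPKM + 1), 251 on log2(FPKM + 0.1) and 29 on log2(FPKM + 1) without a filter, and a test against a 1.5-fold change called 6. Fits without a library called 433 to 2010. For the difference of responses, with 4595 genes, unfiltered log2(FPKM + 1) called 1981, the 1.5-fold test 815, exchange of the HSVTK groups 2261, and fits without a library 3415 to 4638. The causes were not tested, except that the 1.5-fold test asks for more. Fits without a library have fewer samples, yet some of them called more genes than the full fit. Replicate deviations correlated at -0.164 to 0.0977 between groups, which cannot show whether same-numbered libraries share a batch. The replicate block gave 1339 and 4433 genes. A crossed pairing, chosen after seeing the data because Control DMSO and Control GANC deviations correlated at -0.164, gave 1597 and 4680. DESeq2, library size scaling and both other filters stayed within 1.5 times of these counts. Among 100 named genes, 83 were called, and no alternative reversed a called direction in Control cells. The replicate block ended 3 of these calls, Hif1a (adjusted p = 0.0631), Sox2 (0.0533) and Psmb9 (0.0536). log2(FPKM + 1) ended 40 calls and the 1.5-fold test 77. Fewer low genes were called, and the part of depth in this was not tested: of the 5992 tested genes with the lowest CPM 1.15% were called, against 14.8% of the 5992 with the highest.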

Other observations

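The lists not described above are set against 4.73% higher and 3.35% lower among all tested genes in Control cells. Wnt targets and primitive streak genes had 3 of 21 higher and 0 lower by edgeR (5 and 2 at an unadjusted p below 0.05, 3 and 0 by DESeq2, 0 and 0 by limma on log2(FPKM + 1)). For heat shock 3 of 15 genes were higher and 2 lower (33.3% called), for the unfolded protein response 1 of 15 and 2 (20% called), G1 cyclins and cell cycle inhibitors 3 of 25 and 1, NRF2 and oxidative stress genes 2 of 23 and 2, and lysosome and autophagy genes 1 of 24 and 3. Among writers of DNA methylation and imprint guards 4 of 20 genes were higher and 3 lower (35% called). The numbers were 2 of 28 and 4 for imprinted genes (21.4% called) and 3 of 28 and 1 for germline and meiotic genes. With limma on log2(FPKM + 1) the heat shock, unfolded protein response, lysosome, DNA methylation and imprinted lists had 0 and 0, the G1 list 1 and 0, the NRF2 list 0 and 1 and the germline list 2 and 0.

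Apoptosis regulators had 2 of 22 higher and 0 lower by edgeR (4 and 1 at an unadjusted p below 0.05, 2 and 0 by DESeq2, 0 and 0 by limma). Telomere maintenance had 0 of 19 higher and 2 lower (1 and 2 at an unadjusted p below 0.05, 1 and 2 by DESeq2, 0 and 0 by limma). Mitochondrially encoded genes had 0 of 13 higher and 1 lower (1 and 7 at an unadjusted p below 0.05, 0 and 1 by DESeq2, 0 and 0 by limma), and without Control GANC replicate 1 the lower calls numbered 7. Histone genes had 1 of 21 higher and 0 lower (2 and 2 at an unadjusted p below 0.05, 1 and 0 by DESeq2 and limma). The stable members of these lists were E2f1, H1f0, Aurkc, Igf2r and Dnmt3a, given above.

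The share of genes called rose with gene length, from 3.79% of the 5992 shortest tested genes to 8.38% of the next 5992 and 12.1% of the longest 5992. The median log2 fold changes of these sets were -0.0336, 0.00807 and 0.00898.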
